A study of Homo sapiens with 6 samples.

Results

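The genes described here are 10 transcripts that RAS-ERK signalling induces and that in turn restrain it or carry its output: DUSP4, DUSP5, DUSP6, SPRY1, SPRY2, SPRY4, SPRED1, SPRED2, ETV4 and ETV5. They were chosen by symbol, through the Ensembl identifiers of GENCODE release 29, and all 10 were found among the 32364 genes of the deposited table. Messenger RNA was sequenced in 6 libraries from Kasumi-1, an acute myeloid leukemia cell line with the t(8;21) translocation that fuses RUNX1 to RUNX1T1 and with an activating mutation of the receptor KIT. 3 libraries came from control cells, which received the solvent DMSO, and 3 from cells incubated with 0.5 µM I13, a histone deacetylase (HDAC) inhibitor containing indole-3-butyric acid, for 48 h. Values are FPKM, the fragments on a gene per kilobase of exon and per unit of library depth, and can be compared between genes because they are per length. The labels number the libraries of each group but do not say that they came from separate cultures. The paper calls its sequencing figures representative of 3 independent experiments, without saying which library came from which. The p-values therefore measure the spread between these 6 libraries.

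In this pathway a receptor such as KIT activates RAS, RAF, MEK and finally the kinases ERK1 and ERK2. Active ERK switches on genes whose products turn the pathway down again, so the transcripts are widely read as a gauge of ERK output. The DUSP proteins remove the activating phosphates from ERK, the Sprouty (SPRY) and SPRED proteins act upstream near RAS and RAF, and ETV4 and ETV5 are ETS transcription factors that ERK signalling induces and the repressor CIC holds down.

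The libraries held between 15281052 and 17221345 fragments, and I13 replicates 1 and 3 were the least deep. Over the 4133 genes whose mean was 10 FPKM or more, the first principal component (43.3% of the variance) put a pair of libraries (control replicate 3 with I13 replicate 2) on one side and the remaining 4 on the other, and the second (20.5%) separated control from I13. Results are therefore also given for these 4 libraries alone and for the pair, a split that the labels do not name and that was seen in the data. Of the blast markers MPO, ELANE, AZU1, PRTN3, KIT, CD34 and CD33, all 7 were detected, and their summed level was between 16090 and 19110 FPKM in every library. MPO alone was at 10240 to 12450 FPKM. CD33 was the only blast marker whose groups did not overlap, at 10.8 to 11.9 FPKM in control and 12.7 to 13.7 FPKM in I13. The fibroblast markers COL1A1 and COL1A2 were at 0 in every library. Markers of other blood cells were low. The 4 T cell markers summed to between 0.333 and 0.438 FPKM in control and between 0.179 and 0.207 FPKM in I13, with TRAC at 0. The B cell markers CD79A and PAX5 summed to between 1.65 and 2.34 FPKM in control and between 2.43 and 3.44 FPKM in I13. CD3D, with 2 to 6 fragments per library, and PAX5 did not overlap between the groups, as was so for 9.52% of all genes. CD3E, CD2 and CD79A overlapped. Of the epithelial markers EPCAM was at 20.8 to 26.5 FPKM and KRT19 at 0 to 0.0258 FPKM. The part of these markers in the values below was not tested.

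All 10 genes were detected in all 6 libraries, and none passed the limma test between control and I13. Their log2 fold changes from limma on log2(FPKM + 0.1), I13 minus control, ran from -0.47 for SPRY4 to 0.28 for DUSP5, with 6 above and 4 below 0 and a median of 0.017. The median over the 18726 genes tested was 0.0058. At an adjusted p under 0.05 with a log2 fold change of 0.58 or more in size, limma called 0 of the 10 genes, where it called 0% of all genes, and the lowest adjusted p among the 10 was 0.971 for ETV5. At an unadjusted p under 0.05 limma called 0 of the 10, beside 5.14% of all genes. For none of the 10 did the 3 control values lie wholly above or below the 3 I13 values, which was so for 9.52% of all genes. A second test, limma's voom on fragments recovered from the FPKM values, called 0 of the 10 at an adjusted p under 0.05 and 2, SPRY4 and ETV5, at an unadjusted p under 0.05, beside 5.47% of the 13680 genes it tested. Voom with a term for the pair also had SPRY4 and ETV5 at an unadjusted p under 0.05, beside 10.3% of all genes. Because these are bulk RNA values, a smaller share of expressing cells and less RNA per cell cannot be told apart.

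The levels of the 10 genes spanned a wide range. DUSP6 was the highest with a mean of 19.3 FPKM over the 6 libraries, followed by SPRY2 at 14.1, DUSP4 at 9.33, SPRED2 at 7.02, ETV5 at 4.56, SPRY1 at 3.31, SPRED1 at 1.90, DUSP5 at 1.83, ETV4 at 0.432 and SPRY4 at 0.234 FPKM. Each neighbour in this order was separated in all 6 libraries and in its range, with the exception of SPRED1 and DUSP5, whose ranges overlapped and whose order held in 4 of 6 libraries. The summed level of the 10 genes was 60.7, 62.6 and 61.7 FPKM in control replicates 1, 2 and 3 and 62.1, 64.9 and 59.8 FPKM in I13 replicates 1, 2 and 3. The I13 sums enclosed the control sums.

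**Figure D1:**
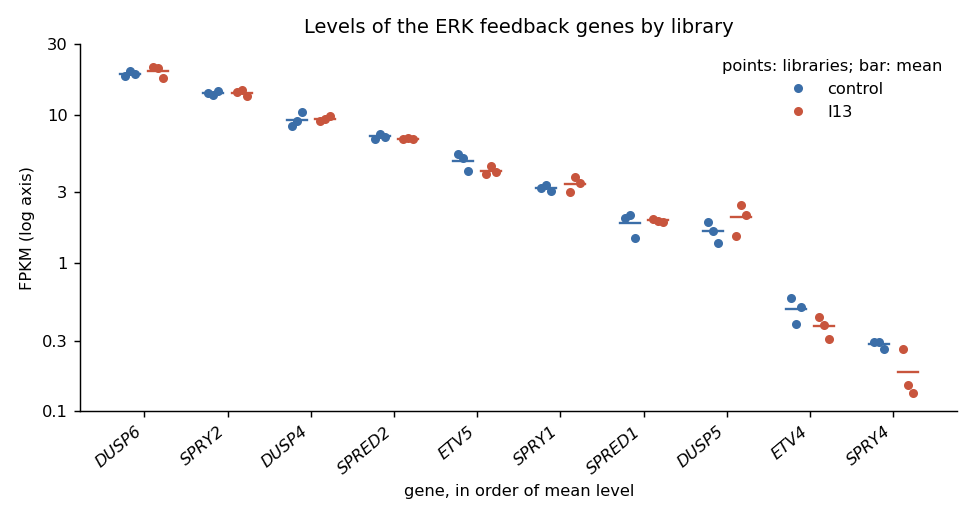
FPKM of each of the 10 genes on a log axis, in order of mean level, with 1 point per library and a bar at each group's mean. From SPRY4 at 0.132 to DUSP6 at 20.9 FPKM the genes differ far more from each other than control differs from I13, and the groups overlap at every gene.

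The dual-specificity phosphatases were at unlike levels, and none of the 3 passed the limma test. DUSP6, the cytoplasmic phosphatase specific for ERK and usually taken as the most direct reporter of ERK output (ENSG00000139318, chromosome 12 from 89347232 to 89353271 on GRCh38), was at 18.2, 19.6 and 18.9 FPKM in control replicates 1, 2 and 3 and at 20.9, 20.6 and 17.7 FPKM in I13 replicates 1, 2 and 3. I13 replicates 1 and 2 were above every control library and I13 replicate 3 was below every control library. Its mean was 18.9 ± 0.712 FPKM in control and 19.7 ± 1.79 FPKM in I13 (SD, n = 3 each), a log2 fold change of 0.06 with a standard error of 0.08 and a 95% interval from -0.12 to 0.24 (adjusted p = 0.9996 from limma). An antisense gene, AC024909.2, shares 1875 bases (40.5%) of the DUSP6 exons and was never above 0.139 FPKM. How the counting treated fragments on those bases is not given in the sources used here.

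DUSP4, a nuclear phosphatase that acts on ERK and other MAP kinases (ENSG00000120875, chromosome 8 from 29333064 to 29350668), was at 8.36, 9.03 and 10.4 FPKM in control and at 9.03, 9.37 and 9.86 FPKM in I13. All 3 I13 values fell inside the control range. The log2 fold change was 0.03 (standard error 0.09, interval from -0.18 to 0.24). DUSP5, the nuclear phosphatase specific for ERK (ENSG00000138166, chromosome 10 from 110497838 to 110511544), had the largest positive difference of the 10 genes. It was at 1.89, 1.65 and 1.36 FPKM in control and at 1.51, 2.48 and 2.10 FPKM in I13, from between 59 and 108 fragments. I13 replicates 2 and 3 exceeded every control value and I13 replicate 1 did not. The log2 fold change was 0.28 (standard error 0.21, interval from -0.20 to 0.77, adjusted p = 0.983 from limma), but 0.016 in the 4 libraries alone and 0.82 in the pair. Without I13 replicate 1 it was 0.47 with an unadjusted p of 0.0478 from limma.

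DUSP5 followed SPRY1 across the 6 libraries with a Pearson correlation of 0.92, then DUSP9 with 0.75 and MAP2K1, the gene of MEK1, with 0.73, the highest of 64 pathway genes compared. These are descriptions over 6 libraries that include the pair that stood apart.

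The Sprouty genes encode inhibitors of receptor-to-RAS signalling. SPRY2 (ENSG00000136158, chromosome 13 from 80335976 to 80340951) had the smallest standard error of the 10 (0.06) and was at 13.9, 13.6 and 14.5 FPKM in control and 14.2, 14.6 and 13.4 FPKM in I13. The mean was 14.03 ± 0.440 FPKM in control and 14.07 ± 0.628 FPKM in I13 (SD, n = 3 each), and the log2 fold change was 0.0044 with an interval from -0.13 to 0.14. SPRY1 (ENSG00000164056, chromosome 4 from 123396795 to 123403760) was at 3.21, 3.34 and 3.06 FPKM in control and 3.00, 3.80 and 3.48 FPKM in I13, a log2 fold change of 0.09 with a standard error of 0.11. I13 replicates 2 and 3 were above the control values and I13 replicate 1 below them.

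SPRY4 (ENSG00000187678, chromosome 5 from 142310427 to 142326455) was the lowest of the 10 and had the largest negative difference. It had 30, 30 and 26 fragments in control and 25, 15 and 12 fragments in I13, which gave 0.294, 0.295 and 0.265 FPKM against 0.265, 0.152 and 0.132 FPKM. I13 replicates 2 and 3 were below every control library, while I13 replicate 1 met the lowest of them. The log2 fold change was -0.47 with a standard error of 0.33 and an interval from -1.25 to 0.31 (adjusted p = 0.983 from limma). Because the pseudocount is large beside such levels, the fold moved with it, to -0.12 with a pseudocount of 1 and -0.67 with 0.01, and by voom it was -0.69 (unadjusted p = 0.0433, adjusted p = 0.889). It was -0.44 in the 4 libraries alone and -0.54 in the pair.

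The 3 Sprouty genes covered a wide range of levels, so sequence before their starts is shown. RefSeq promoter windows (GRCh38.p14) matched 6 of the 10 genes, DUSP6, SPRY1, SPRY2, SPRY4, SPRED1 and SPRED2, in 10 windows, and the 250 bases before each start site were searched on both strands. The motifs were the ETS site CCGGAAG, the CRE TGACGTCA, its shorter form TGACG (which lies inside the CRE), the AP-1 site TGANTCA and the CIC octamer TNAATGAA. The ETS site was found in 1 of the 10 windows (8.52% of all promoter windows), TGACG in 2 (21.2%), and the CRE (1.65%), the AP-1 site (6.57%) and the octamer (3.91%) in 0. The first sequence below holds the 250 bases before a start of SPRY2, the most abundant Sprouty transcript, at chr13:80341127-80341376 on the minus strand. The second is the site before a start of SPRY4, the least abundant of these 3 Sprouty genes, at chr5:142324299-142324328 on the minus strand. The third is that before a start of SPRY1 at chr4:123398307-123398336 on the plus strand. Capitals mark TGACG in SPRY2 and SPRY4 and CCGGAAG in SPRY1. The TGACG lies 190 to 186 bases before the SPRY2 start and 68 to 64 bases before the SPRY4 start, and the ETS site 67 to 61 bases before the SPRY1 start. In GENCODE release 29 the SPRY4 and SPRY1 sites are in annotated exons of these genes and the SPRY2 window is in no exon. These are matches of letters, not measured binding.
SPRY2: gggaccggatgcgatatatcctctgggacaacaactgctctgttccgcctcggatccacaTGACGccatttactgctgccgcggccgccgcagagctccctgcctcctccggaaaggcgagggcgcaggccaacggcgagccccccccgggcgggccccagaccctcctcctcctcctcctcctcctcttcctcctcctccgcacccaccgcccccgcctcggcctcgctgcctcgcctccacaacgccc
SPRY4: ctcttcggagccgTGACGgactgaattccc
SPRY1: tgccctccgcagCCGGAAGggggccgcggg

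The SPRED genes encode relatives of Sprouty that recruit neurofibromin to RAS. SPRED2 (ENSG00000198369, chromosome 2 from 65310851 to 65432637) was at 6.91, 7.45 and 7.13 FPKM in control and 6.85, 6.96 and 6.84 FPKM in I13. I13 replicates 1 and 3 lay just below the control range, which I13 replicate 2 entered. The log2 fold change was -0.06, with an interval from -0.20 to 0.09. SPRED1 (ENSG00000166068, chromosome 15 from 38252326 to 38357249) was at 2.00, 2.11 and 1.47 FPKM in control and 1.99, 1.92 and 1.90 FPKM in I13, so that control replicate 3 stood below all other libraries. Its log2 fold change was 0.07 over 6 libraries, -0.08 in the 4 libraries alone and 0.37 in the pair.

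ETV5 (ENSG00000244405, chromosome 3 from 186046308 to 186110318) gave the lowest unadjusted p of the 10. It was at 5.40, 5.14 and 4.18 FPKM in control and 4.02, 4.52 and 4.08 FPKM in I13. Control replicates 1 and 2 were above every I13 library, and control replicate 3 was inside the I13 range. The mean was 4.91 ± 0.644 FPKM in control and 4.21 ± 0.271 FPKM in I13 (SD, n = 3 each), a log2 fold change of -0.21 with a standard error of 0.11 and an interval from -0.48 to 0.06. The unadjusted limma p was 0.104 and the two-sided exact permutation p was 0.2, where 3 against 3 allow no p under 0.1. In the 4 libraries alone the log2 fold change was -0.37 with an unadjusted p of 0.00529 and an adjusted p of 0.448 from limma, and 8.58% of all genes passed that unadjusted threshold. In the pair it was 0.11, the opposite direction. By voom over all 6 libraries it was -0.22 with an unadjusted p of 0.0442 and an adjusted p of 0.89. Of the ETV5 exon bases 164 are shared with DGKG on the same strand, which was at 3.22 to 4.31 FPKM, and how the counting divided those fragments is not given in the sources used here.

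ETV4, the close relative of ETV5 (ENSG00000175832, chromosome 17 from 43527844 to 43579620), was at 0.58, 0.388 and 0.502 FPKM in control and 0.435, 0.382 and 0.308 FPKM in I13, from between 17 and 36 fragments. The groups overlapped through control replicate 2. The log2 fold change was -0.31 with a standard error of 0.26, and it was -0.30 in the 4 libraries alone and -0.32 in the pair. The 95% interval ran from -0.91 to 0.30. The fold of ETV4 also moved with the pseudocount, to -0.11 with a pseudocount of 1 and -0.37 with 0.01, and by voom it was -0.37. With each library left out it ran from -0.44 without control replicate 2 to -0.20 without control replicate 1 and -0.20 without I13 replicate 3. The ETV4 exons share 68 bases with DHX8 on the opposite strand, which was at 7.94 to 8.84 FPKM. The part of DHX8 fragments in the low ETV4 counts was not tested.

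**Figure D2:**
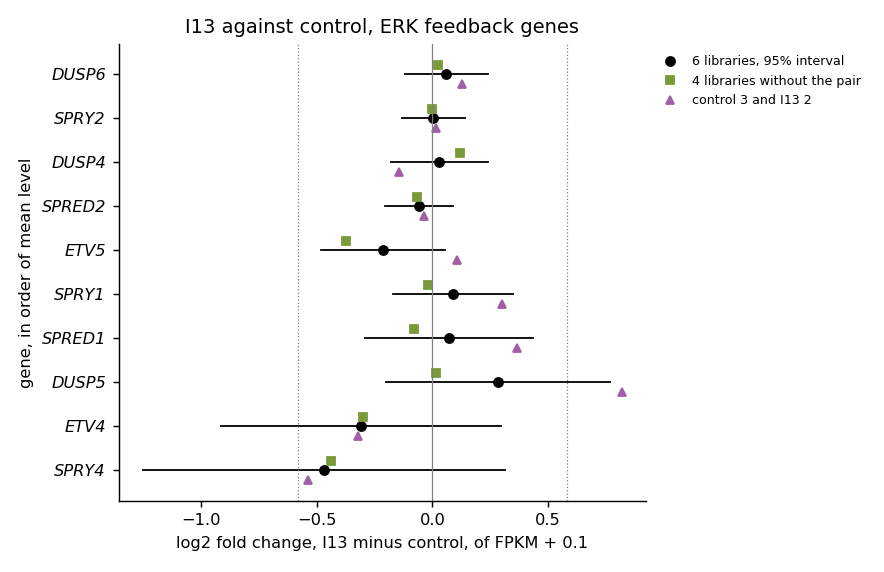
Log2 fold change of FPKM + 0.1, I13 minus control, for each gene in order of mean level, with the 95% interval from limma over 6 libraries and the values in the 4 libraries alone and in the pair. Dotted lines mark 0.58 in either direction. All 10 intervals cross 0, and those of SPRY4, ETV4 and DUSP5 are the ones that reach past 0.58 in size.

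For 7 of the 10 genes the 95% interval lay inside a log2 fold change of 0.58 in either direction, against 54.1% of all genes tested, and the exceptions were DUSP5, SPRY4 and ETV4. Over the 6 libraries, the exact permutation p of the 10 genes ran from 0.2 to 1.0. The sign was the same in the 4 libraries alone and in the pair for 5 of the 10. The share of all genes was not counted, so that number is a description and not a result about these genes.

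**Figure D3:**
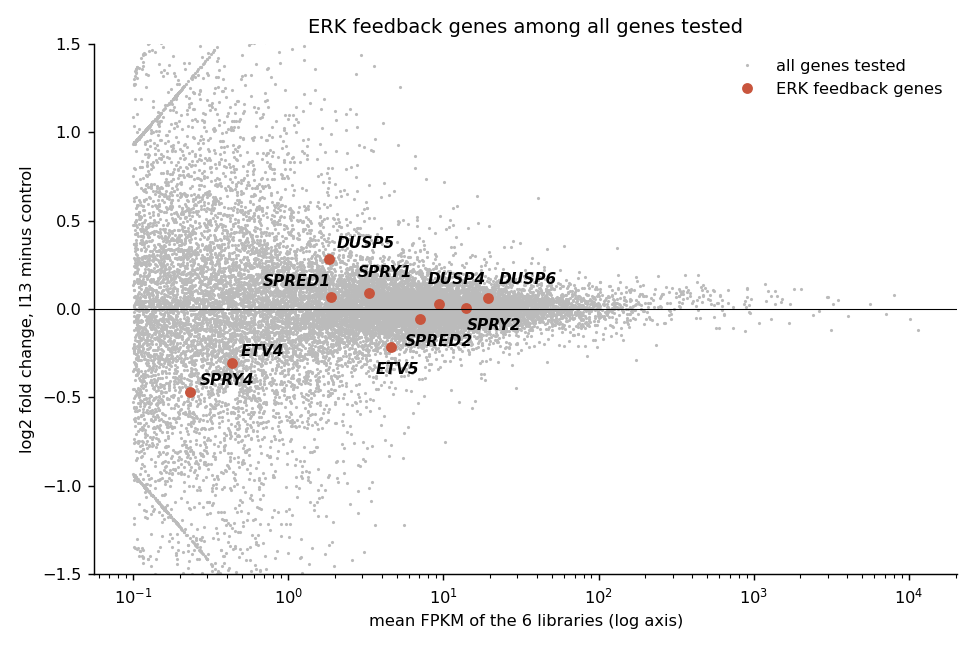
Log2 fold change against mean FPKM on a log axis for genes tested, with the 10 genes in colour. The spread of all genes narrows as the level rises, and each of the 10 lies within the cloud at its own level. The vertical axis ends at 1.5, and 399 genes beyond it are not drawn.

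Each family kept the same leading member in both groups. SPRY2 held 79.5 ± 0.987% of the summed Sprouty FPKM in control and 79.1 ± 1.37% in I13 (SD, n = 3 each), beside 18.2 ± 1.12% and 19.2 ± 1.90% for SPRY1. SPRY3, a family gene outside the 10, was at 0.131 ± 0.0615 FPKM in control and 0.109 ± 0.0206 FPKM in I13. SPRED2 held 79.0 ± 2.74% and 77.6 ± 0.730% of the SPRED level, with SPRED3 between 0 and 0.0824 FPKM. ETV5 held 88.9 ± 2.29% and 89.5 ± 0.841% of the ETV1, ETV4 and ETV5 level, of which ETV1 held 2.14 ± 0.770% and 2.49 ± 1.59%. DUSP6 held 56.1 ± 1.60% and 56.3 ± 2.57% of the cytoplasmic phosphatases, beside DUSP7 (8.29 ± 0.548 and 8.19 ± 0.574 FPKM) and DUSP9 (6.49 ± 1.24 and 7.12 ± 0.846 FPKM). DUSP4 held 41.8 ± 2.03% and 40.4 ± 2.78% of the nuclear ones, next to DUSP2 with 36.2 ± 0.594% and 36.8 ± 2.17%, and in I13 replicate 2 the share of DUSP2 was the larger. Group means of the shares of SPRY1, SPRY2 and SPRY4 were also compared by a two-sided exact permutation test, with p = 0.5, 0.8 and 0.2.

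**Figure D4:**
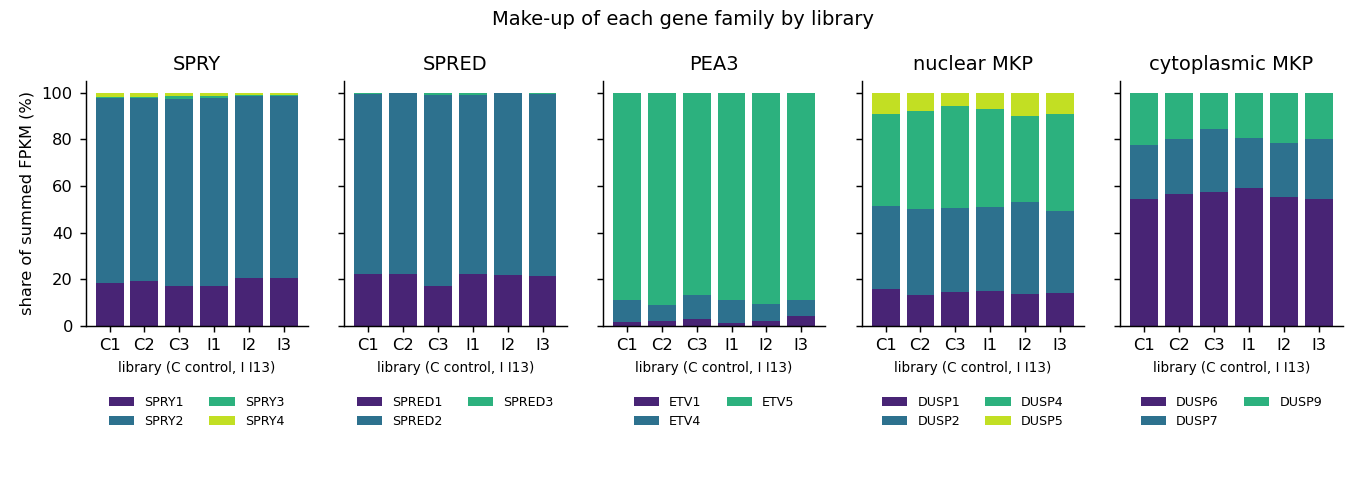
Share of the summed FPKM held by each gene of 5 families in every library, in percent, with C for control and I for I13. SPRY2, SPRED2, ETV5 and DUSP6 hold the largest share in all 6 libraries.

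The rest of the pathway was read from 5 lists of 75 genes written from general knowledge, of which 67 were tested and 4 (5.97%) had an unadjusted limma p under 0.05, 2 higher and 2 lower, and 0 an adjusted one. That share is close to the 5.14% of all genes tested, so the 4 genes are named by rule and their number is not a result about the lists. In the RAS-ERK cascade 1 of 24 genes passed, MAPK3 (the gene of ERK1), which was at 7.22, 7.75 and 7.91 FPKM in control and 6.52, 6.19 and 6.31 FPKM in I13. Its groups did not overlap, and the log2 fold change was -0.26 with a standard error of 0.07 (adjusted p = 0.787 from limma). KIT, the most abundant gene of the cascade, was at 225.5 ± 12.2 FPKM in control and 216.1 ± 17.1 FPKM in I13 (SD, n = 3 each), a log2 fold change of -0.06 with a standard error of 0.07. Among RAS and ERK inhibitors 1 of 12 passed, PEA15, a protein that holds ERK in the cytoplasm, with 14.1 ± 0.354 FPKM in control and 15.5 ± 0.0974 FPKM in I13 (log2 fold change 0.13, adjusted p = 0.947 from limma). PEBP1, a RAF inhibitor, was the most abundant there, and its log2 fold change was 0.06 (standard error 0.06).

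None of the 6 other MAP kinase phosphatases tested passed, and their median log2 fold change was 0.08. By the mean of the 6 libraries DUSP2 was the highest of them at 8.32 FPKM, close to DUSP7 at 8.24 FPKM. DUSP2 was at 8.003 ± 0.536 FPKM in control and 8.63 ± 1.13 FPKM in I13 (SD, n = 3 each). In control DUSP7 had the higher mean, at 8.29 ± 0.548 FPKM. Of 13 other ERK output genes 1 passed, CCND1 (cyclin D1), at 0.962, 1.303 and 0.887 FPKM in control and 1.72, 1.56 and 1.55 FPKM in I13. The groups did not overlap, and the log2 fold change was 0.59 with a standard error of 0.17 and an interval from 0.18 to 0.99 (adjusted p = 0.875 from limma). With a pseudocount of 1 it was 0.35, under the fold threshold, and with 0.01 it was 0.63. By voom it was 0.62 (unadjusted p = 0.00106, adjusted p = 0.263). Over the main fit and the alternatives, CCND1 had an unadjusted p under 0.05 in 19 of 20 fits. It missed that threshold in the 4 libraries alone, at 0.50 with an unadjusted p of 0.0846 from limma. MYC, the highest of that list, had a log2 fold change of 0.04 (standard error 0.07). Of 12 ETS factors and CIC genes 1 passed, FLI1, at 27.4, 26.2 and 25.2 FPKM in control and 22.1, 21.2 and 23.1 FPKM in I13. No I13 value reached a control value, and the log2 fold change was -0.24 with a standard error of 0.06 (adjusted p = 0.669 from limma). By voom with a term for the pair, chosen after the data had been seen, the adjusted p of FLI1 was 0.00221 at a log2 fold change of -0.25, under the fold threshold, and over the other alternatives its adjusted p did not fall below 0.258. ERF, the most abundant of the list and a repressor that ERK exports from the nucleus, had a log2 fold change of -0.0069 with a standard error of 0.08.

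**Figure D5:**
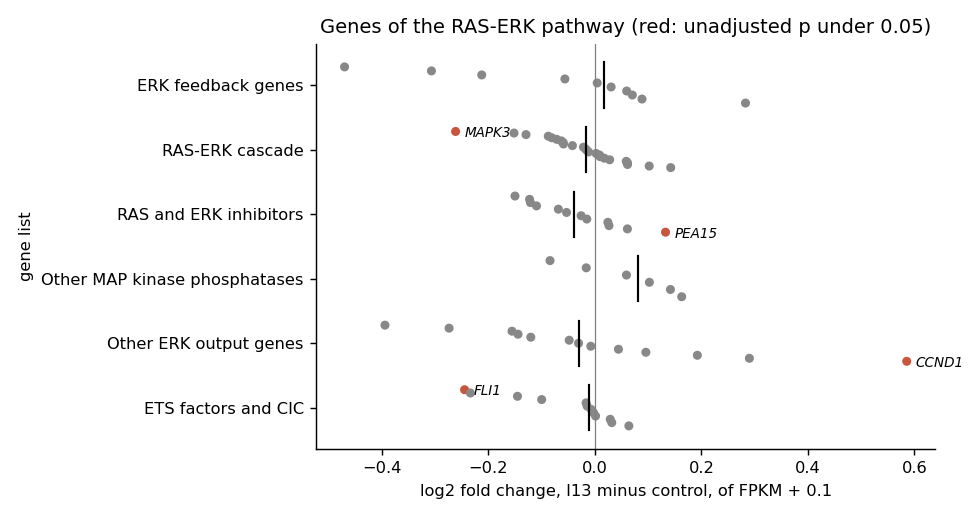
Log2 fold change, I13 minus control, of the genes tested in each list and of the 10 feedback genes, with 1 point per gene, a bar at each median and an unadjusted limma p under 0.05 in red. The medians lie between -0.04 for the RAS and ERK inhibitors and 0.08 for the other MAP kinase phosphatases.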

How the data were processed

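The 10 genes and the 5 pathway lists were chosen with earlier results of these data known. Per the labels, libraries were made with the TruSeq Stranded mRNA kit, and the submitters' processing notes name Trimmomatic, HISAT2, Cufflinks, HTSeq and hg38 without versions. The authors deposited FPKM values per gene and library, which were used without further scaling. For the annotation and the strand setting of the counting, the sources used here give nothing. GENCODE release 29 named 32244 of 32364 identifiers, and with its exon lengths 25772 of 27002 genes above 0 (95.4%) gave whole fragments in every library (tolerance 0.01), the 10 genes included. Depth was 15281052 to 17221345 fragments, and a gene with few fragments is measured less precisely.

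Groups followed the labels. limma 3.58.1 in R 4.3.3 was fitted, two-sided, on log2(FPKM + 0.1) for 18726 genes (mean FPKM 0.1 or more), with group only and a variance trend, with Benjamini-Hochberg adjustment. Fold changes on this scale understate changes of low genes. The thresholds were p under 0.05 and an absolute log2 fold change of 0.58, which the study's methods give with the p corrected. The paper reports both upregulated and downregulated genes for these cells, and its methods do not name the test. Voom used genes with 10 or more fragments on average. Single genes were also compared by exact permutation. The script was tested on simulated data. Tables and sequences were handled in Python 3.11.15 with pandas 2.3.3. Named genes were all 10 members, SPRY3, SPRED3, ETV1 and DUSP7, the most abundant gene of each list, its genes with an unadjusted p under 0.05 (up to 4), and the 3 genes most correlated with DUSP5, the member with the largest absolute log2 fold change at a mean of at least 1 FPKM. DUSP9 and MAP2K1 came in by that last rule. Replicate numbers did not pair the libraries (correlations of 0.32, -0.379 and -0.297 for the same number), so the block is given only as an alternative. The alternatives were a pseudocount of 1 or 0.01, a mean FPKM of 1 as minimum or none, quantile normalization, median scaling, no trend, robust variances, the replicate block, a term for the library pair, the 4 libraries alone, voom and each library left out. Voom with the pair term was added after the data had been seen. IL17RD, MS4A1, HBB, DCN and CDH1 were not analysed here. The level of 1 marker list is not reported here.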

Additional observations from a re-analysis of the deposited data

How the results depend on the processing

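No alternative gave any of the 10 feedback genes an adjusted p under 0.05, and the lowest was 0.325 for ETV5 by voom with the pair term. Over 22 named genes and all alternatives, 373 of 414 log2 fold changes kept direction and side of the threshold, 28 changed sign, 8 passed the unadjusted threshold newly and 5 no longer passed it. Among the 10, 0 passed an unadjusted p under 0.05, against 1 in the 4 libraries (ETV5), 2 by voom and 2 by voom with the pair term (SPRY4 and ETV5 in both), and 0 to 1 with each library left out. Those were ETV5 without control replicate 3 (-0.32), DUSP5 without I13 replicate 1 and DUSP6 without I13 replicate 3 (0.14). Of the list genes 4 passed, where 5.14% of all genes did, against 8 in the 4 libraries (8.58% of all genes) and 9 by voom with the pair term (10.3% of all genes). PEA15 did not pass without a trend, with the replicate block or by either voom fit. Over all genes, 0 passed the adjusted p and the fold, against 9 without a trend, 6 by voom and 15 by voom with the pair term, and 445 passed the unadjusted p and the fold, against 134 with a pseudocount of 1, 119 with a minimum mean FPKM of 1, 203 by voom and 204 with the pair term. With the replicate block 506 did, and 0 of the 10 feedback genes.

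The cause of the changes of sign was not tested. In the 4 libraries the log2 fold change was -0.018 for SPRY1, -7.56e-05 for SPRY2, -0.078 for SPRED1, 0.022 for ERF, 0.11 for SPRY3 and 0.12 for ETV1. With quantile normalization it was -0.0001553 for SPRY2, -0.019 for MYC and 0.021 for ETV1, with a pseudocount of 1 it was 0.0007312 for ETV1, and by voom with the pair term it was -0.0002804 for SPRY2. With each library left out it ranged from -0.039 to 0.11 for DUSP4, -0.024 to 0.039 for SPRY2, -0.082 to 0.16 for SPRED1, -0.27 to 0.084 for SPRY3, -0.28 to 0.17 for ETV1, -0.062 to 0.038 for DUSP7, -0.052 to 0.067 for ERF, -0.0009371 to 0.11 for MYC and -0.11 to 0.0040 for KIT. SPRY4 and ETV4 fell under the minimum mean FPKM of 1 and could not be fitted there. A planned ratio for genes with a mean under 10 fragments gave no value, since none of the 10 was that low. The intervals of SPRY4, ETV4 and DUSP5 reached past 0.58. SPRY4 and ETV4 rest on 12 to 36 fragments per library, and their chi-square per degree of freedom (1.36 and 0.892) was near the counting noise. That of DUSP5 was 3.39. It was higher for DUSP4 (7.86), DUSP6 (6.92), ETV5 (4.93) and SPRED1 (4.44). For SPRY1 (1.73), SPRY2 (1.03) and SPRED2 (0.487) it was lower.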
